A study of Solanum lycopersicum with 8 samples.

Results

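In young tomato leaf, 64 genes stood at least 2-fold higher after heat in both genotypes studied. With 1 CPM added to each value, these genes stayed under 2-fold in both anther comparisons. They were chosen from their measured values: log2((heat + 1)/(control + 1)) of at least 1, with a mean of heat and control of at least 10 CPM (tags scaled to 1000000 per library), in the leaf pair of plants labelled A2AS and in that of wild type (WT) plants, and a log2 ratio below 1 in both anther pairs, with 3 genes left out by name. They are 64 of the 29345 listed genes and 0.815% of the 7851 genes that reached the leaf minimum in both genotypes. Since the rule used every heat and control pair, the heat ratios below are descriptions with no test. The tables identify genes by Solyc IDs alone and do not pair them with names, so no member is given a name or a role.

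Plants meet heat with a rapid transcriptional response. Heat stress transcription factors (Hsfs) bind promoters of genes for heat shock proteins, chaperones that keep other proteins from aggregating. In tomato, HsfA2 is an Hsf that accumulates during repeated heat and is known to be expressed in developing anthers. Leaves and anthers differ in the genes at work before any stress: leaf cells carry the photosynthetic machinery, and anthers hold developing pollen and the tapetum that feeds it.

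All 8 libraries came from 8-week-old plants of Solanum lycopersicum cultivar Moneymaker, kept in a glasshouse at 24 °C through a 16 h day and at 20 °C through an 8 h night. The assay, massive analysis of cDNA ends (MACE), reads the 3′ end of polyadenylated RNA. The groups are A2AS heated leaf, A2AS control leaf, WT heated leaf, WT control leaf and the same 4 for anthers, each with 1 library, so no heat or genotype ratio can be checked against a replicate. A2AS is known from the study as a transgenic line with suppressed HsfA2, and the sources used here do not name its promoter or the number of lines. Heated plants were moved to a growth chamber with 120 μmol m-2 s-1 of light, were held at 39 °C for 1 h and were given 1.5 h at 24 °C to recover. The labels do not describe the handling of the controls, so heat, transfer, light and time of day cannot be told apart. The anthers were of several developmental stages. In whole tissue, fewer cells of a type and less RNA per cell cannot be told apart.

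HsfA2 (Solyc08g062960 in published tomato nomenclature) checked the labels. It was at 2.72 CPM in A2AS against 21.7 CPM in WT heated leaf, and at 2.25 CPM in A2AS against 10.3 CPM in WT control leaf. In control anthers it was at 1.08 CPM in A2AS and 1.93 CPM in WT. In heated anthers it was at 39.3 CPM in the library labelled A2AS and 22.3 CPM in WT, which goes against that label, so values of that library below are those of a library labelled A2AS and not of anthers known to have reduced HsfA2. The 4 listed Rubisco genes, a leaf marker, summed to 13975 to 38843 CPM in leaf and 2016 to 2836 CPM in anthers. LAT52, MS10 and MS32, markers of pollen and anther, summed to 159 to 330 CPM in anthers and 1.82 to 3.03 CPM in leaf. The heated A2AS leaf library held 6243965 reads and the others 11534512 to 14764187, and 3 reads corresponded to 0.203 to 0.480 CPM. Ranges in brackets after a fold are exact 95% counting intervals and do not cover differences between plants.

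Seen together, the members were moderately expressed genes in leaf. Their median level was 41.7 CPM in heated and 16.9 CPM in control A2AS leaf, and 60.9 CPM in heated and 20.0 CPM in control WT leaf. In anthers labelled A2AS the medians were 15.6 CPM after heat and 15.3 CPM in controls. In WT anthers they were 14.9 CPM after heat and 13.9 CPM in controls. Over all 7851 genes the medians lay between 26.7 and 33.0 CPM in the 4 leaf libraries and between 27.6 and 31.4 CPM in the 4 anther libraries. The members therefore stood below the typical gene in control leaf and in every anther library, and above it in both heated leaf libraries. Summed over the 64 genes, A2AS leaf held 6073 CPM after heat and 2100 CPM in controls, and WT leaf 8000 CPM after heat and 2637 CPM in controls.

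**Figure D1:**
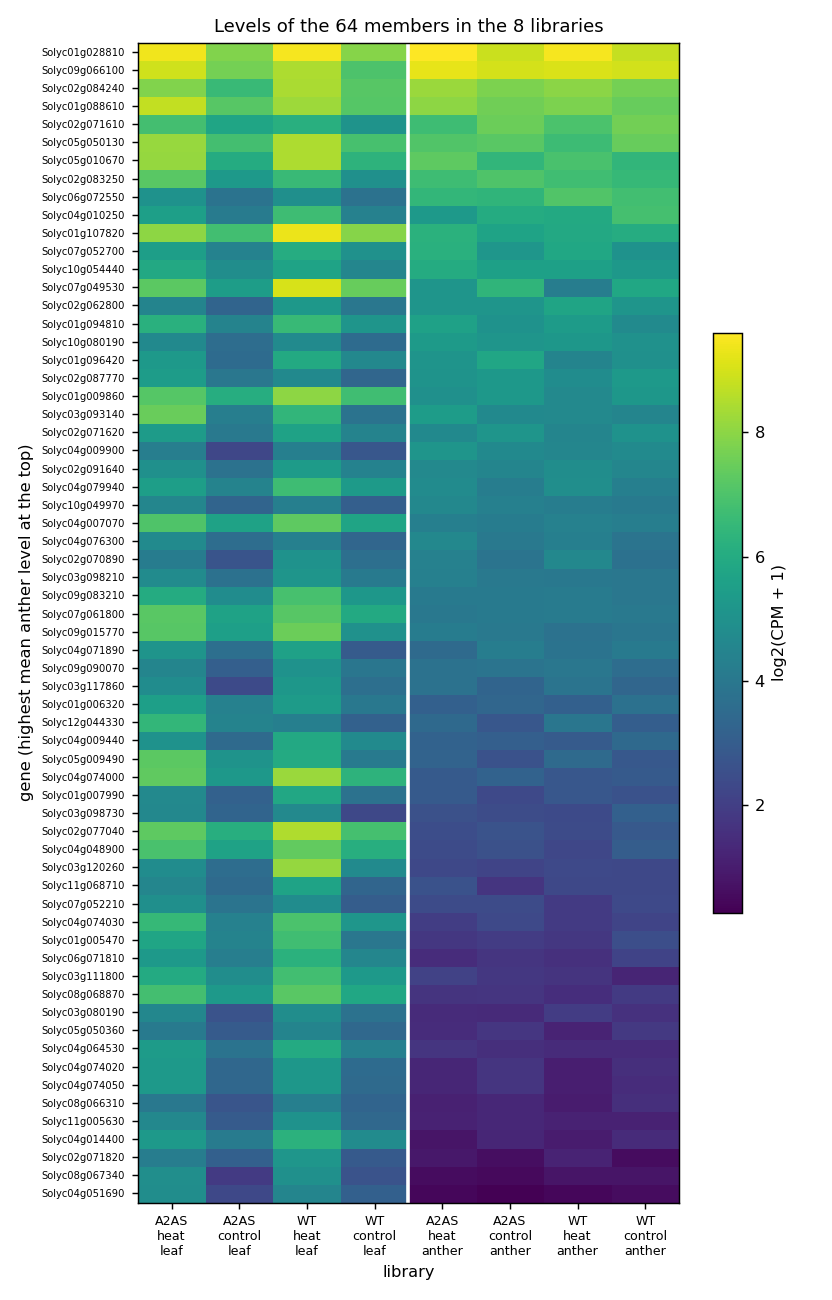
Level of each of the 64 members as log2(CPM + 1), 1 row per gene from the highest mean anther level at the top, in the 4 leaf libraries (left of the white line) and the 4 anther libraries. Within each genotype the heated leaf column is brighter than the control leaf column in every row, as the rule requires, while anther columns range from 779 CPM at the top to 0.203 CPM at the bottom.

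The median leaf heat ratio of the members was 1.36 in A2AS, with a range of 1.02 to 3.19, and 1.46 in WT, with a range of 1.00 to 3.42, on the log2 scale. Most therefore lay between 2-fold and 4-fold: 10 of the 64 reached 4-fold in A2AS and 12 in WT. In anthers the median heat ratio was 0.08 in the pair labelled A2AS and 0.01 in WT, beside 0.05 in both genotypes over all 7851 genes. As background to the rule, 2.64% of 8153 genes reached 2-fold in the same direction in A2AS leaf and 4.01% of 8833 in WT leaf. In anthers the share was 2.22% in the pair labelled A2AS and 2.55% in WT. In both leaf pairs together 139 genes were at least 2-fold higher, or 1.77% of 7851. By the same ratio, 64 of these were also 2-fold higher in both anther pairs and 11 in 1 anther pair. The 64 members were so in neither.

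The 64 genes higher in all 4 pairs are the closest comparison, and they differ from the members in size as a description. Their median leaf heat ratio was 2.62 in A2AS and 2.35 in WT. All 12 listed small heat shock proteins, chaperones that hold unfolding proteins, reached 2-fold higher levels after heat in both leaf and both anther pairs, and none is a member. None of the 82 genes in the 12 gene lists is a member, HSP70, HSP90 and Hsf genes included. The rule took only 0.815% of the 7851 genes, and some listed genes were below its leaf minimum. Their absence is therefore not a result about the members. The control leaf libraries differed in some listed genes. The 12 small heat shock proteins summed to 954 CPM in WT and 154 CPM in A2AS control leaf. MBF1c, another listed gene, was at 65.5 CPM in WT and 5.44 CPM in A2AS control leaf. Its log2 heat ratio was −1.01 in WT and 1.12 in A2AS leaf. Each leaf heat ratio rests on 1 control library, and whether WT control leaf was unstressed was not tested. Of the 11 listed circadian clock genes, none was 2-fold higher after heat in leaf, none was 2-fold lower in A2AS leaf and 2 were in WT leaf. These were LHY, a morning-phased transcription factor, at −0.85 in A2AS and −1.05 in WT leaf, and PRR7, a pseudo-response regulator of the clock, at −0.77 in A2AS and −1.15 in WT leaf, both log2 heat ratios and named after their values were seen. The list's median heat ratio was 0.19 in A2AS and 0.01 in WT leaf, beside 0.01 and 0.08 over all 7851 genes. Of the 12 chlorophyll a/b-binding genes of the light-harvesting antenna, none was higher by 2-fold, none was lower in A2AS leaf and 2 were in WT leaf. Over all genes with the pair minimum, 1.09% were 2-fold lower in A2AS leaf and 1.66% in WT leaf, while the list counts use every listed gene without that minimum.

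**Figure D2:**
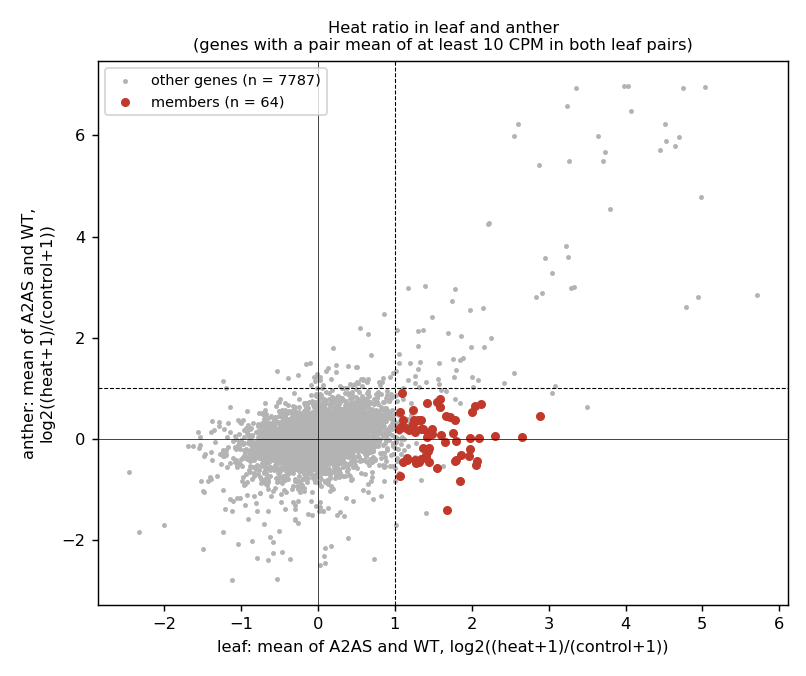
Mean over A2AS and WT of log2((heat + 1)/(control + 1)) in leaf (x axis) and anther (y axis) for 7851 genes, with the 64 members in red and the limit of 1 dashed. The members fill the band right of the leaf limit and below the anther limit, and the genes higher in both tissues reach further on both axes.

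The limits cut through a continuous range. Just inside the leaf limit were Solyc02g091640, whose smaller leaf ratio was 1.00, and Solyc04g076300 at 1.01. Just outside it were Solyc06g084020 and Solyc07g041830, both at 0.99. At the anther limit, Solyc07g052700 entered with a larger anther ratio of 0.99 and Solyc11g068710 with 0.90, while Solyc01g106310 at 1.03 and Solyc06g069820 at 1.04 stayed out. Solyc11g008200 and Solyc03g005900 met the ratio limits but not the minimum, with smaller leaf pair means of 9.88 and 9.71 CPM. On unadjusted values, without the added 1, 3 members reached 2-fold in an anther pair: Solyc02g071820, Solyc07g052700 and Solyc11g068710.

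Averaged over A2AS and WT, the highest leaf heat ratios were those of Solyc03g093140 and Solyc08g067340. Solyc03g093140 was at 175 CPM in heated and 18.3 CPM in control A2AS leaf, and at 83.7 CPM in heated and 13.2 CPM in control WT leaf. That is 9.56-fold (8.33 to 11.0) in A2AS and 6.35-fold (5.36 to 7.57) in WT. Its anther levels were 41.7 CPM after heat and 24.7 CPM in controls for the pair labelled A2AS, and 24.3 CPM after heat and 21.8 CPM in controls for WT. It was thus present in both tissues, and heated leaf alone stood far above the other libraries.

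Solyc08g067340 was nearly absent from anthers. In A2AS leaf it was at 28.3 CPM after heat and 2.57 CPM in controls, an 11.0-fold difference (7.56 to 16.0). In WT leaf it was at 29.6 CPM after heat and 5.38 CPM in controls, 5.52-fold (4.22 to 7.33). The 4 anther libraries held 0.406 to 0.729 CPM. At the other end, Solyc03g098210 was at 26.4 CPM in heated and 12.5 CPM in control A2AS leaf, and at 34.6 CPM in heated and 15.7 CPM in control WT leaf. Solyc04g076300 was at 25.6 CPM in heated and 11.3 CPM in control A2AS leaf, and at 19.3 CPM in heated and 9.10 CPM in control WT leaf. Both sat near 2-fold in both genotypes.

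In heated WT leaf, Solyc01g028810 and Solyc01g107820 had the highest levels. Solyc01g028810 was at 671 CPM in heated and 229 CPM in control A2AS leaf, and at 716 CPM in heated and 243 CPM in control WT leaf. The genotypes were close, with 2.93-fold (2.80 to 3.07) in A2AS and 2.95-fold (2.83 to 3.08) in WT. Its anther levels were as high: 779 CPM in heated and 465 CPM in control anthers labelled A2AS, and 716 CPM in heated and 436 CPM in control anthers of WT. Heated anthers were above control anthers as well, by 1.68-fold (1.63 to 1.73) in the pair labelled A2AS and 1.64-fold (1.59 to 1.70) in WT, both under the limit of the rule.

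Solyc01g107820 was at 257 CPM in heated and 109 CPM in control A2AS leaf, and at 652 CPM in heated and 238 CPM in control WT leaf. Heat and control differed by 2.35-fold (2.19 to 2.52) in A2AS and 2.74-fold (2.62 to 2.86) in WT. Its anther levels lay between 50.6 and 73.2 CPM. Heated anther was 1.45-fold control (1.32 to 1.59) in the pair labelled A2AS and 0.912-fold (0.826 to 1.01) in WT.

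**Figure D3:**
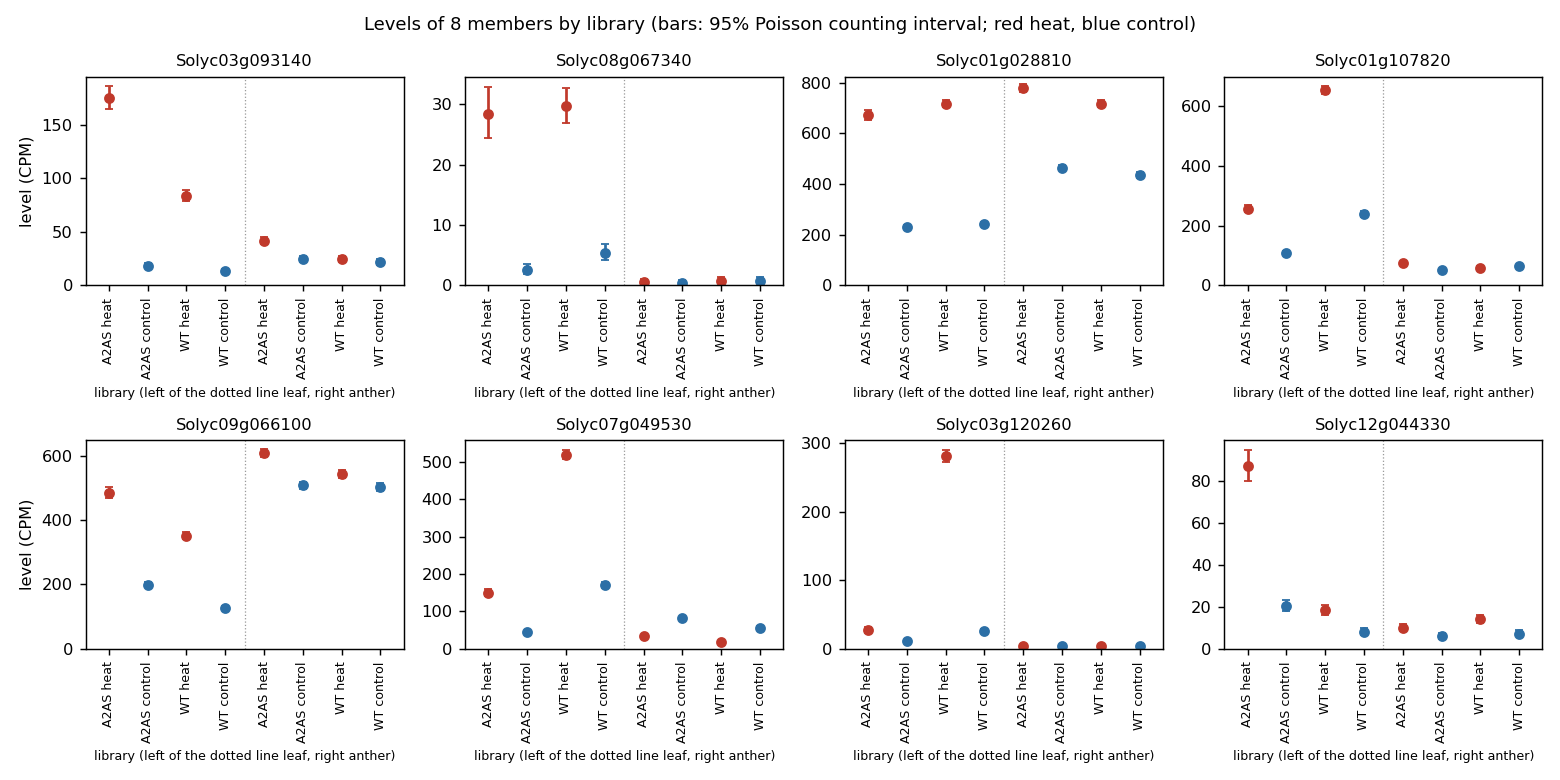
Level in CPM (linear axes from 0) of 8 members in each of the 8 libraries, heat in red and control in blue, leaf left of the dotted line and anther right of it, with 95% Poisson counting intervals. Solyc03g093140 peaks at 175 CPM in A2AS heated leaf, Solyc03g120260 at 281 CPM in WT heated leaf, and Solyc09g066100 is higher in all 4 anther libraries than in any leaf library.

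The members split by how strongly anthers carried them. In 35 of the 64 every anther library held at least 10 CPM, in 25 every anther library was below 10 CPM, and 4 lay between. Over all 7851 genes, 84.0% had at least 10 CPM in every anther library and 9.90% were below it in every one, beside 54.7% and 39.1% of the members. The rule set a minimum in leaf and none in anthers, so this is no test of tissue. The leaf heat ratio hardly differed between these classes in A2AS, with medians of 1.35 for the 35 and 1.34 for the 25. In WT leaf the medians were 1.35 for the 35 and 1.66 for the 25. The median anther heat ratios were 0.16 in both genotypes for the 35, and −0.02 in the pair labelled A2AS and −0.34 in WT for the 25.

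The highest mean anther levels were those of Solyc01g028810 and Solyc09g066100. Solyc09g066100 was at 485 CPM in heated and 198 CPM in control A2AS leaf, and at 351 CPM in heated and 127 CPM in control WT leaf. Anthers were at 609 CPM after heat and 508 CPM in controls for the pair labelled A2AS, and at 542 CPM after heat and 501 CPM in controls for WT. Every anther library exceeded every leaf library. It is 1 of 6 members whose control anther level was at or above the heated leaf level of the same genotype in both genotypes, 9.38% of the members beside 38.3% of all 7851 genes.

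Solyc04g051690 had the lowest mean anther level. It was at 27.5 CPM in heated and 3.84 CPM in control A2AS leaf, and at 22.1 CPM in heated and 7.72 CPM in control WT leaf. Its anther levels of 0.203 to 0.483 CPM rest on 3 to 6 reads per library. A heat difference was not detectable there at this depth, with an anther fold of 1.69 (0.328 to 10.9) in the pair labelled A2AS and 0.754 (0.182 to 2.96) in WT. Altogether 6 members stayed under 2 CPM in every anther library, 9.38% of them beside 1.82% of all 7851 genes.

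In anthers, heat was above control in both pairs for 28 members, or 43.8%, beside 44.0% of all 7851 genes. It was below control in both pairs for 23 members, or 35.9%, beside 29.4% of all genes. The shares are near the background, and the rule capped the higher side. Solyc07g049530 alone among the members was 2-fold lower in an anther pair, and in both, beside 2.50% of 9485 genes in the pair labelled A2AS and 2.67% of 9288 in WT. It was at 150 CPM in heated and 43.6 CPM in control A2AS leaf, and at 519 CPM in heated and 170 CPM in control WT leaf. Its anther levels ran the other way: 34.3 CPM after heat and 81.3 CPM in controls for the pair labelled A2AS, and 17.8 CPM after heat and 56.3 CPM in controls for WT.

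For Solyc07g049530, heated leaf was 3.44-fold control leaf (3.10 to 3.81) in A2AS and 3.05-fold (2.90 to 3.21) in WT. Heated anther was 0.421-fold control anther (0.379 to 0.468) in the pair labelled A2AS and 0.316-fold (0.272 to 0.366) in WT. Solyc04g010250 showed the same pattern at smaller size. In leaf it was at 45.2 CPM after heat and 16.7 CPM in controls for A2AS, and at 104 CPM after heat and 19.9 CPM in controls for WT. Its anther levels were 38.3 CPM after heat and 63.7 CPM in controls for the pair labelled A2AS, and 59.8 CPM after heat and 116 CPM in controls for WT. Heated anther was 0.602-fold control anther (0.541 to 0.669) in the pair labelled A2AS and 0.516-fold (0.473 to 0.563) in WT.

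Averaged over both anther pairs, the highest anther heat ratios were those of Solyc07g052700 and Solyc12g044330. Solyc07g052700 was at 71.5 CPM in heated and 35.5 CPM in control anthers labelled A2AS, and at 56.1 CPM in heated and 31.5 CPM in control WT anthers. Its leaf levels were 44.4 CPM after heat and 20.0 CPM in controls for A2AS, and 65.9 CPM after heat and 30.8 CPM in controls for WT. The anther folds of 2.02 (1.81 to 2.24) in the pair labelled A2AS and 1.78 (1.57 to 2.01) in WT overlap in their intervals with the leaf folds of 2.22 (1.87 to 2.63) in A2AS and 2.14 (1.89 to 2.42) in WT. This member is separated from the genes higher in both tissues by the limit alone.

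By the chromosome digits of their IDs, 15 of the 64 members lay on chromosome 4, or 23.4%, beside 9.23% of all 7851 genes. Of these, 4 form a run that was noticed after the values were seen: Solyc04g074000, Solyc04g074020, Solyc04g074030 and Solyc04g074050. Without the run, 11 of 60 members, or 18.3%, carried chromosome 4 IDs. Chromosome 4 had the largest excess share of all chromosomes and was singled out for that, with no test. Solyc04g074000 was at 157 CPM in heated and 37.0 CPM in control A2AS leaf, and at 292 CPM in heated and 77.2 CPM in control WT leaf. Solyc04g074030 was at 92.0 CPM in heated and 19.8 CPM in control A2AS leaf, and at 123 CPM in heated and 35.5 CPM in control WT leaf.

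Solyc04g074020 was at 38.1 CPM in heated and 9.54 CPM in control A2AS leaf, and at 35.6 CPM in heated and 10.4 CPM in control WT leaf. Solyc04g074050 held the same value as Solyc04g074020 in 4 of the 8 libraries and differed by at most 1.33 reads in the rest, so both may hold the same reads and cannot be taken as separate measurements. All 4 genes of the run were below 10 CPM in every anther library. Solyc04g074040, the listed ID between Solyc04g074030 and Solyc04g074050, was at 106 CPM in heated and 95.9 CPM in control A2AS leaf, and at 139 CPM in heated and 122 CPM in control WT leaf, and is not a member. How the counting treated reads that match several genes is not stated in the sources used here. In A2AS heated leaf none of the 4 genes of the run held a whole number of reads. All 4 may therefore share reads with other genes, and whether they do was not tested. Solyc02g071610 and Solyc02g071620 were the other members with a member within 5 listed IDs, 6 members in all.

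**Figure D4:**
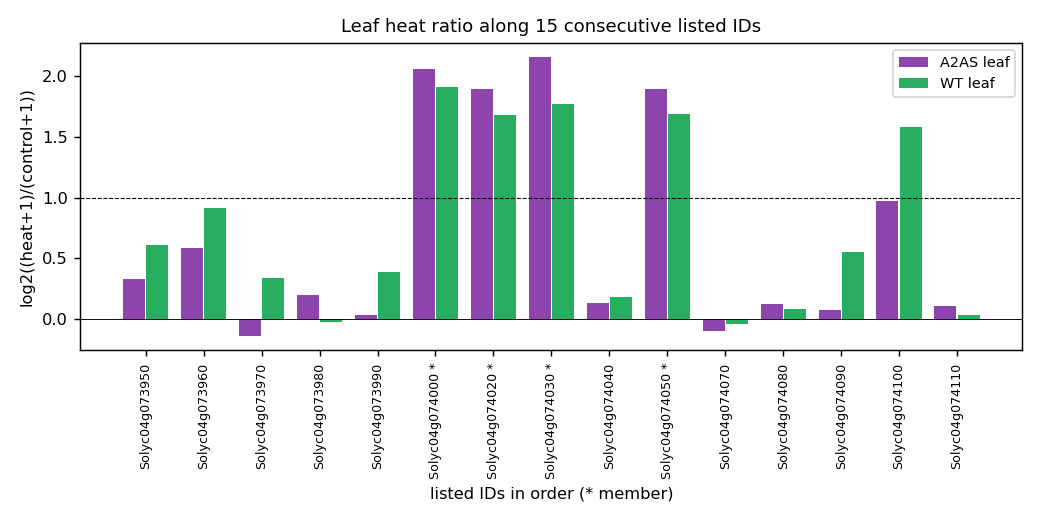
log2((heat + 1)/(control + 1)) in A2AS leaf and WT leaf for 15 consecutive listed IDs of chromosome 4, with members marked by a star and the limit of 1 dashed; the axis gives order only, not distance. The 4 members reach 1.68 to 2.16, and the ID among them, Solyc04g074040, is at 0.14 in A2AS and 0.18 in WT.

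The leaf heat ratio was larger in A2AS for 34 members and in WT for 30, with a median difference of 0.04 and a range of −2.22 to 1.15 on the log2 scale. With 1 library per group these differences have no test. Solyc03g120260 had the widest difference. It was at 27.2 CPM in heated and 11.3 CPM in control A2AS leaf, and at 281 CPM in heated and 25.4 CPM in control WT leaf, or 2.41-fold (1.93 to 3.01) in A2AS and 11.1-fold (9.82 to 12.5) in WT. Its anther levels were 3.52 to 4.01 CPM in all 4 libraries, so the single library of WT heated leaf stands apart from the other 7.

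Solyc01g005470 followed, at 53.5 CPM in heated and 20.6 CPM in control A2AS leaf, and at 107 CPM in heated and 14.6 CPM in control WT leaf. The heat fold was larger in A2AS for Solyc04g051690, at 7.17 (5.24 to 9.95) in A2AS and 2.86 (2.25 to 3.67) in WT. For Solyc12g044330 it was 4.25 (3.67 to 4.92) in A2AS and 2.34 (1.84 to 3.01) in WT. In both directions the intervals of the 2 genotypes are apart, which covers counting error only.

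The A2AS against WT contrast was not used by the rule and was tested. The error in these tests draws on how the heat ratio differs between A2AS and WT. The rule limited those heat ratios, so the members' p values are not independent of it. In leaf the members lay lower in A2AS, as did leaf genes in general. The median log2 ratio of A2AS over WT was −0.38 in heated leaf and −0.39 in control leaf, beside −0.30 and −0.20 over all 7851 genes. A2AS was below WT in both leaf pairs for 39 members, or 60.9%, and above WT in both for 14, or 21.9%. Over all 7851 genes the shares were 63.9% and 18.0%. In these shares the members thus lay near the background in leaf. In both anther pairs the libraries labelled A2AS were below WT for 18 members, or 28.1%, beside 12.8% of all 7851 genes. They were above WT in both for 25 members, or 39.1%, beside 46.6%. In heated leaf 3 of 64 members were at least 2-fold higher and 8 at least 2-fold lower in A2AS, beside 3.44% and 6.51% of 8727 genes.

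In control leaf, where 48 members had a pair mean of 10 CPM or more, 1 was 2-fold higher in A2AS and 6 were 2-fold lower, beside 1.93% and 2.76% of 8331 genes. In heated anthers none of 37 members was 2-fold different, beside 0.918% of genes higher and 1.37% lower in the library labelled A2AS. In control anthers none of 36 was, beside 0.695% of genes higher and 1.32% lower. The leaf ratios of the members in heated and control leaf went together, with Pearson r = 0.651 across the 64 genes and 0.749 across all 7851. Genes of 1 library share its depth and scaling and are not independent replicates.

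Photosynthesis genes move with the genotype in leaf, and all CPM values of a library share 1 total. Chlorophyll a/b-binding genes summed to 34910 CPM in A2AS against 12333 CPM in WT heated leaf, and to 33096 CPM in A2AS against 18676 CPM in WT control leaf. Their part in the members' differences was not tested beyond other scalings of the libraries. Median-ratio scaling, which sets the typical gene equal between libraries, shifted the median of all genes by 0.24 in A2AS heated, 0.31 in A2AS control, −0.08 in WT heated and 0.09 in WT control leaf, and by −0.24 to −0.04 in anthers. With it the members' median A2AS over WT ratio was −0.07 in heated and −0.18 in control leaf, beside 0.01 and 0.00 over all 7851 genes. It left 29 members higher and 35 lower in A2AS in heated leaf, against 18 and 46 as deposited.

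**Figure D5:**
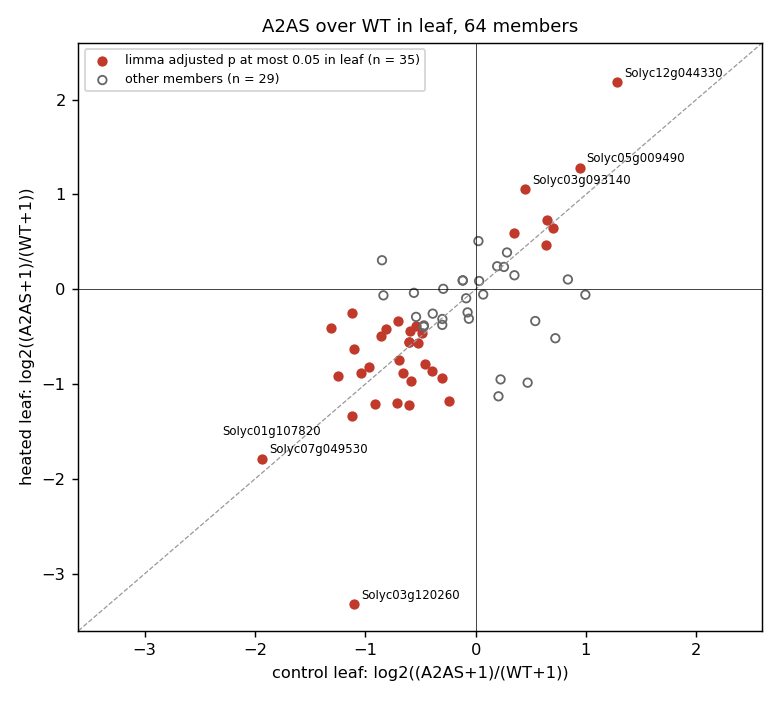
log2((A2AS + 1)/(WT + 1)) of the 64 members in control leaf (x axis) and heated leaf (y axis), with the 35 members that passed the limma test in leaf in red and the 29 others open; the dashed line marks equal ratios. Solyc07g049530 lies at −1.94 and −1.79, Solyc12g044330 at 1.28 and 2.18, and Solyc03g120260 far below the line.

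Within leaf, limma on log2(CPM + 1) with treatment as a block called 35 of the 64 members at a Benjamini-Hochberg adjusted p of at most 0.05, 7 higher and 28 lower in A2AS. The same test called 31.5% of 14017 genes, 7.62% higher and 23.9% lower. Those genes needed a mean of only 2 CPM, below the members' leaf minimum. With a mean of at least 10 CPM the test called 36 of the 64 members beside 3640 of 8580 genes. The only repeats are the heated and the control pair, so the error is how the A2AS ratio varies between treatments and not a spread between plants. With median-ratio scaling the test called 22 members, 11 higher and 11 lower. With totals that leave out the 100 most abundant genes it called 23, 8 higher and 15 lower. The split over all genes moved as well, to 1362 higher and 711 lower with median-ratio scaling and 1270 higher and 1326 lower without the top genes, against 1068 higher and 3345 lower as deposited. All 35 kept their direction under both scalings, and 18 with median-ratio scaling and 22 without the top genes were still called. With no expression minimum, over 29345 genes, limma called none of the members. At an unadjusted p under 0.05 it listed 32 members, or 50%, beside 17.0% of all genes.

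The lowest adjusted p among the members belonged to Solyc07g049530, lower in A2AS by a log2 difference of −1.86 ± 0.16 (SE, limma adjusted p = 1.66e-08) and at 0.289-fold the WT level (0.269 to 0.309) in heated and 0.257-fold (0.234 to 0.281) in control leaf. Solyc03g120260 was lower by −2.21 ± 0.28 (SE, limma adjusted p = 3.88e-06). Its own log2 ratios lay far apart, at −3.32 in heated and −1.10 in control leaf. Higher in A2AS was Solyc12g044330, by 1.73 ± 0.19 (SE, limma adjusted p = 6.29e-07), at 87.4 CPM in A2AS against 18.5 CPM in WT heated leaf and at 20.6 CPM in A2AS against 7.89 CPM in WT control leaf. Solyc05g009490 followed with 1.11 ± 0.16 (SE, limma adjusted p = 1.74e-05), at 153 CPM in A2AS against 62.5 CPM in WT heated leaf and at 32.4 CPM in A2AS against 16.4 CPM in WT control leaf. All 4 genes had the same sign in the heated and the control pair.

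Over all 4 tissue and treatment pairs, limma called none of the 64 members and none of 15220 genes (0.00%) at an adjusted p of at most 0.05. At an unadjusted p under 0.05 it listed 15 members, 4 higher and 11 lower in A2AS, or 23.4% beside 8.63% of all genes. Without the control leaf pair it listed 2 members, or 3.13% beside 2.42% of all genes, and without the heated leaf pair 5, or 7.94% beside 3.12%. Without the control anther pair it listed 20 members, or 31.3% beside 13.3% of all genes. Without the heated anther pair it listed 21, or 32.8% beside 14.1%. The smallest adjusted p among the members was 0.576. Solyc04g010250, lower in A2AS in all 4 pairs, had a log2 difference of −0.72 ± 0.17 (SE, limma adjusted p = 0.576), and Solyc02g062800 one of −0.52 ± 0.16 (SE, limma adjusted p = 0.576). Solyc03g093140 had 0.61 ± 0.17 and Solyc10g054440 0.31 ± 0.12, both higher in A2AS in all 4 pairs and with the same limma adjusted p of 0.576.

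Whether the A2AS difference itself differed between tissues was tested in limma by a genotype and tissue term. It called 8 of the 64 members, 5 with a higher value in anther than in leaf and 3 with a lower one, beside 3.05% of 15220 genes, 2.01% higher and 1.04% lower. With median-ratio scaling 8 members were called as well, 2 higher and 6 lower, and 5 of them were the same genes. Over all genes the split turned too, with 112 higher and 462 lower under that scaling, against 306 higher and 158 lower as deposited. Leaving out the heated anther pair, whose A2AS library goes against its label in HsfA2, called 8 members, 6 of them the same. Without the heated leaf pair limma called none. There 24 members, or 38.1%, were at an unadjusted p under 0.05, beside 20.9% of all genes. With no expression minimum it called none, with 28 members, or 43.8%, at that level beside 19.7% of all genes. A pseudocount of 5 left 3 called. With a mean of at least 10 CPM, 12 of 57 members were called, beside 853 of 9441 genes.

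Solyc07g049530 carried the smallest adjusted p among the members, with a difference of 2.58 ± 0.18 between the anther and the leaf ratio (SE, limma adjusted p = 0.0144). In anthers the library labelled A2AS was at 1.92-fold the WT level (1.65 to 2.26) after heat, and A2AS at 1.44-fold (1.31 to 1.59) in controls, opposite to leaf. Solyc01g096420 differed by 1.60 ± 0.21 (SE, limma adjusted p = 0.0416). It was at 33.4 CPM in the library labelled A2AS against 21.5 CPM in WT heated anthers and 54.9 CPM in A2AS against 30.0 CPM in WT control anthers, and at 38.8 CPM in A2AS against 60.4 CPM in WT heated leaf and 10.6 CPM in A2AS against 23.8 CPM in WT control leaf. The groups change order between tissues in both genes.

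In the other direction, Solyc05g009490 differed by −1.36 ± 0.19 (SE, limma adjusted p = 0.0416) and Solyc12g044330 by −2.09 ± 0.32 (SE, limma adjusted p = 0.0433). Solyc05g009490 was at 8.37 CPM in the library labelled A2AS against 10.2 CPM in WT heated anthers, and at 5.08 CPM in A2AS against 6.12 CPM in WT control anthers. Solyc12g044330 was at 10.1 CPM in the library labelled A2AS against 14.1 CPM in WT heated anthers, and at 5.89 CPM in A2AS against 7.25 CPM in WT control anthers. For Solyc05g009490 the library labelled A2AS was at 0.820-fold the WT level (0.638 to 1.05) after heat and A2AS at 0.830-fold (0.595 to 1.16) in control anthers, with both intervals including 1. For Solyc12g044330 these folds were 0.713 (0.572 to 0.888) after heat and 0.813 (0.598 to 1.10) in controls.

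For comparison, the 64 genes that were 2-fold higher after heat in all 4 pairs had a median A2AS over WT ratio of −0.91 in heated and −0.93 in control leaf, against −0.38 and −0.39 for the members, as a description with no test.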

How the data were processed

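The 8 libraries were deposited by the authors as CPM tables, with tags scaled to 1000000 per library without any length term, and called TPM in the tables. The listed genes held 69.2% to 73.4% of that total, and the rest lies outside them. FastQC is the only tool named in the submitters' processing notes. The sources used here do not name the aligner, counting, strand use, genome build or annotation. MACE binds the poly(A) tail and reads the last 500 bases of each transcript, per the labels' protocols. Between 77.6% and 83.9% of the nonzero values came out whole, to within 0.001 of a read, at the step given by the most common value, so reads per library were taken from that step, but no count model was run.

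Groups were taken from the labels. Ratios are log2 of (CPM + 1) over (CPM + 1), so the change of low genes is understated, and folds are plain ratios. Exact (Clopper-Pearson) 95% intervals came from values turned into whole reads and leave out all but counting error: without molecular identifiers, reads are not independent molecules. Testing was done in limma 3.58.1 in R 4.3.3 on log2(CPM + 1) for genes averaging 2 CPM or more. Variances were moderated across genes along a trend with the mean. The tests were two-sided, with Benjamini-Hochberg adjustment over all genes tested. The tests over 4 pairs and in leaf were also run on simulated data with known changes. That of the difference between anther and leaf was not. The simulated noise was independent between libraries and the changes were equal in every pair. Those runs therefore cannot show how reliable the calls in these libraries are. The tests are of A2AS minus WT over 4 pairs, in leaf, and of its difference between anther and leaf, and the repeats in them are tissues and treatments, not plants.

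The members and gene lists were chosen with earlier results of these data known. All 82 listed IDs were found, and their names rest on published tomato nomenclature. The reference gene table has 41476 rows and none holds a Solyc ID, so no sequence or coordinate is given. Members named are the 2 at each extreme of leaf heat ratio, anther heat ratio, anther level, the difference in leaf heat ratio and the leaf A2AS over WT ratio, the 2 highest in heated WT leaf, and the 2 smallest adjusted p per direction and test. Chromosome 4, the run on it, the members counted in groups of 5 or fewer and Solyc04g074040 were chosen after their values were seen. Scaling, pseudocount, minimum and limits were varied.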

Additional observations from a re-analysis of the deposited data

Results flagged for a closer look

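For 8 members the A2AS minus WT log2 difference itself differed between anther and leaf in limma, at adjusted p values of 0.0144 to 0.0494, beside 464 of 15220 genes. A positive value means that A2AS stood higher against WT in anther than in leaf. The value was 2.58 for Solyc07g049530, 1.60 for Solyc01g096420, 1.18 for Solyc04g074000, 0.97 for Solyc04g079940 and 0.84 for Solyc07g052700. It was −2.09 for Solyc12g044330, −1.36 for Solyc05g009490 and −0.85 for Solyc02g071610. All 8 kept their direction under each of the 8 alternatives run, and none was called without the heated leaf pair or with no expression minimum.

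Among the genes the report describes less, Solyc04g079940 was at 44.8 CPM in A2AS against 105 CPM in WT heated leaf and at 20.6 CPM in A2AS against 39.7 CPM in WT control leaf. In anthers it was at 26.2 CPM in the library labelled A2AS against 28.5 CPM in WT after heat and at 17.7 CPM in A2AS against 18.5 CPM in WT controls. Solyc02g071610 was at 111 CPM in A2AS against 70.0 CPM in WT heated leaf and at 53.0 CPM in A2AS against 32.3 CPM in WT control leaf. Its anther levels were 105 CPM in the library labelled A2AS against 124 CPM in WT after heat, and 183 CPM in A2AS against 198 CPM in WT controls.

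For 23 members heat was above control in both leaf pairs and below control in both anther pairs. The leaf direction is set by the rule, the share in anthers is 35.9% beside 29.4% of 7851 genes, and the difference was not tested.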

How the results depend on the processing

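The number of members, 64 as reported, was 41 with a leaf pair mean of at least 20 CPM, 116 with a leaf limit of 0.8, 37 with a leaf limit of 1.2 and 36 when anthers also had to reach 10 CPM. It was 255 with the WT pairs alone, 136 with the A2AS pairs alone and 245 without the A2AS leaf pair, which were tried after seeing the data. Median-ratio scaling chose 57 genes, 48 of them shared with the 64, and totals without the 100 most abundant genes 61, with 58 shared. In leaf, limma called 35 members and 4413 genes as reported, 22 and 2073 with median-ratio scaling, 23 and 2596 without the 100 most abundant genes in the totals, and none of either with no expression minimum. For the difference between anther and leaf, 8 members and 464 genes were called as reported, 3 and 168 with a pseudocount of 5, and none of either with no expression minimum or without the heated leaf pair. There the genes called were 853 with a mean of at least 10 CPM and 889 without the heated anther pair; both of these left-out pairs were chosen after seeing the data. The causes were not tested. Over 4 pairs no member was called under any of the 10 alternatives. At an unadjusted p under 0.05 there were 2 to 21 members, beside 2.42% to 14.1% of all genes. Members 2-fold lower in A2AS heated leaf were 8 as reported and 3 with median-ratio scaling. In control leaf 1 was higher as reported, 3 with median-ratio scaling, 2 without the top genes and 0 with a pseudocount of 5, and 6 were lower as reported, 2, 2 and 3 under those settings. Of 576 recomputed ratios of 18 named members, 498 stayed within their counting interval and 78 moved beyond it. None that was at least 2-fold in either direction as reported changed sign. Sign changes of smaller ratios were not counted.

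The limma tests set A2AS beside WT within each tissue and treatment, and no fit with a replicate number could be made, since each group has 1 library and the labels give no such numbers. Depth limits the 6 members under 2 CPM in every anther library, where 3 reads are 0.203 to 0.480 CPM, and the A2AS heated leaf library holds the fewest reads, 6243965.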
